A study of Mus musculus with 16 samples.

Results

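Pdgfra, Ly6a, Cd34, Dpep1, Dpt and Clec3b are genes used to mark fibroblasts of the vessel's outer layer, the adventitia, and the mesenchymal progenitors found there. They were taken by symbol from the deposited gene table, where they are 6 of 20581 genes. All 6 passed the filter on low counts and stand among the 14217 genes tested.

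The data are 16 total RNA libraries of primary cultures labelled as aortic smooth muscle cells of mice, 4 in each of 4 groups. The groups were RBC.ARG1-KO cells in DIAM, RBC.ARG1-WT cells in DIAM, RBC.ARG1-KO cells in DMEM and RBC.ARG1-WT cells in DMEM. In KO mice the red cell lineage has lost Arg1, since EpoR Cre was crossed to Arg1 flox, and the WT mice are their littermates. The deletion is thus driven in red cell precursors and not in the cultured cells. All animals carry the labels C57BL/6J and male, and no age is stated. DIAM adds 3 agents to DMEM for 10 days to promote lipid storage, namely L-ascorbic acid at 50 µg/mL, dexamethasone at 0.1 µM and insulin at 1 µM. Cultures in DMEM had 10% fetal bovine serum, and whether DIAM held serum is not stated. No time in the medium is stated for cultures in DMEM, so whether the media were matched in time is not known. The design text names 4 biological replicates and the library protocol triplicates. Nothing says which libraries came from separate animals, so the p-values measure only the spread between these libraries. The cultures were unsorted and no marker was used to purify them.

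PDGFRA is a receptor tyrosine kinase for platelet-derived growth factors and is displayed by fibroblasts and mesenchymal progenitors rather than by contractile smooth muscle. LY6A (SCA-1, an antigen of mice) and the sialomucin CD34 are surface antigens by which adventitial and adipose progenitors are sorted, and both also occur on blood stem cells and endothelium. DPEP1 is a membrane-anchored dipeptidase, dermatopontin (DPT) is a matrix protein that binds decorin and assists collagen fibril assembly, and CLEC3B (tetranectin) is a secreted lectin that binds plasminogen.

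Because the 6 genes moved together with the medium, the 250 bases before the annotated start were read for the 4 genes that RefSeq's promoter table (GRCm38.p6) lists, and these are printed 5′ to 3′. Ly6a and Clec3b had no entry in that table.
Pdgfra (chr5:75152001-75152250, + strand): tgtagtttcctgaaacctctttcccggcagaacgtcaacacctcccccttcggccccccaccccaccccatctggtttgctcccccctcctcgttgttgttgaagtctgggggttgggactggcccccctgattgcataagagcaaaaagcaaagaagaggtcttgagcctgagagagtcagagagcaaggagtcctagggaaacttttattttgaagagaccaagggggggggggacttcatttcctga
Cd34 (chr1:194938571-194938820, + strand): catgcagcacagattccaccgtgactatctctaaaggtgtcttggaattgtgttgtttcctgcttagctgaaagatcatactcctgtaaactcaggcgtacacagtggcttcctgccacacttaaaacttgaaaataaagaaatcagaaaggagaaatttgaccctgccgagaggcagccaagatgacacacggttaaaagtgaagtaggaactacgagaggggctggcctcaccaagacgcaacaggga
Dpep1 (chr8:123185985-123186234, + strand): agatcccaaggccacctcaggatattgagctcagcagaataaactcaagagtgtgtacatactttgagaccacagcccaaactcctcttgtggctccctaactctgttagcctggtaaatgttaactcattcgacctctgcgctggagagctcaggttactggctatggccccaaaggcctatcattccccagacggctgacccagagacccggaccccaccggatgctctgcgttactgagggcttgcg
Dpt (chr1:164796413-164796662, + strand): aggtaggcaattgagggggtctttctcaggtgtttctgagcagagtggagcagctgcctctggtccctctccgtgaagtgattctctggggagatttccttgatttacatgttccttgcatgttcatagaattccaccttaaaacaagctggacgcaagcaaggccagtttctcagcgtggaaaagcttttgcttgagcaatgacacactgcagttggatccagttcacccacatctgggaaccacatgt
Capitals would mark a match to 1 of 5 motifs searched on both strands, and there is none in these 4 windows. The motifs were the full glucocorticoid response element (AGAACA, 3 free bases, TGTTCT), its part AGAACA alone, the TATA box TATAAA, the GC box GGGCGG and the CArG box of serum response factor. Over all 32851 windows of this length in the table, the shares holding them were 0.00913%, 16.1%, 12.4%, 32.7% and 1.47%, in that order. Only exact matches within these 250 bases were searched, and the full element is rare in all windows. The lack of matches therefore cannot decide whether glucocorticoid response elements act on these genes, which was not tested. GC content was 54.4% for Pdgfra, 46.4% for Cd34, 53.6% for Dpep1 and 48.8% for Dpt.

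Total counts per library lay between 37221313 and 47626242, and the smallest count behind any value of the 6 genes was 53. Levels are CPM, counts scaled to library size with the trimmed mean of M values (TMM). The label of the cells was checked against smooth muscle markers: the summed level of 18 such genes was 3452 to 5166 CPM in KO and 3305 to 4599 CPM in WT cells in DIAM, and 6742 to 11110 CPM in KO and 8802 to 10310 CPM in WT cells in DMEM, with 3 rising and 8 falling in KO cells and 3 rising and 9 falling in WT cells. Acta2, smooth muscle actin, averaged 844 ± 227 CPM in KO and 771 ± 167 CPM in WT cells in DIAM, and 1800 ± 541 CPM in KO and 1960 ± 247 CPM in WT cells in DMEM (SD, n = 4 each). Cnn1 also fell, to 23 ± 6.46 CPM in KO and 16 ± 6.36 CPM in WT cells, from 76.7 ± 23.3 and 83.8 ± 10.5 CPM. Myh11 neither rose nor fell by the test. It averaged 158 ± 44.1 CPM in KO and 101 ± 35.9 CPM in WT cells in DIAM, and 102 ± 27.9 and 108 ± 13.8 CPM in DMEM. Myocd was among the genes that rose in both genotypes. Arg1 itself gave estimated counts of 3, 4, 2 and 1 in KO DIAM, 1, 9, 0 and 5 in WT DIAM, 12, 22, 2 and 49 in KO DMEM and 3, 4, 3 and 3 in WT DMEM libraries. It was below the filter, and since the deletion is in red cell precursors these counts do not check the genotype labels.

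All 6 genes rose in DIAM against DMEM in both genotypes, tested in edgeR (quasi-likelihood, Benjamini-Hochberg over all 14217 genes). Of all genes tested, 29.8% rose and 30.8% fell in KO cells, and 27.6% rose and 27.5% fell in WT cells. For each of the 6 genes every DIAM library lay above every DMEM library, which held for 27.3% of genes in KO and 24.3% in WT cells. The median log2 fold change of the 6 was 2.75 in KO and 2.65 in WT cells, against -0.02 and -0.01 for all genes. The 6 were chosen with earlier results of these data known, so their contrast with all genes is a description and not a test. The rises were unequal: Clec3b and Dpep1 rose most, Ly6a, Cd34 and Dpt lay between, and Pdgfra rose least. In total RNA of whole cultures, more cells of a type and more RNA per cell cannot be told apart. Together the 6 genes took 0.3599% to 0.4141% of the counts in KO and 0.3175% to 0.3496% in WT libraries in DIAM, and 0.04708% to 0.06161% in KO and 0.0451% to 0.05588% in WT libraries in DMEM.

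**Figure D1:**
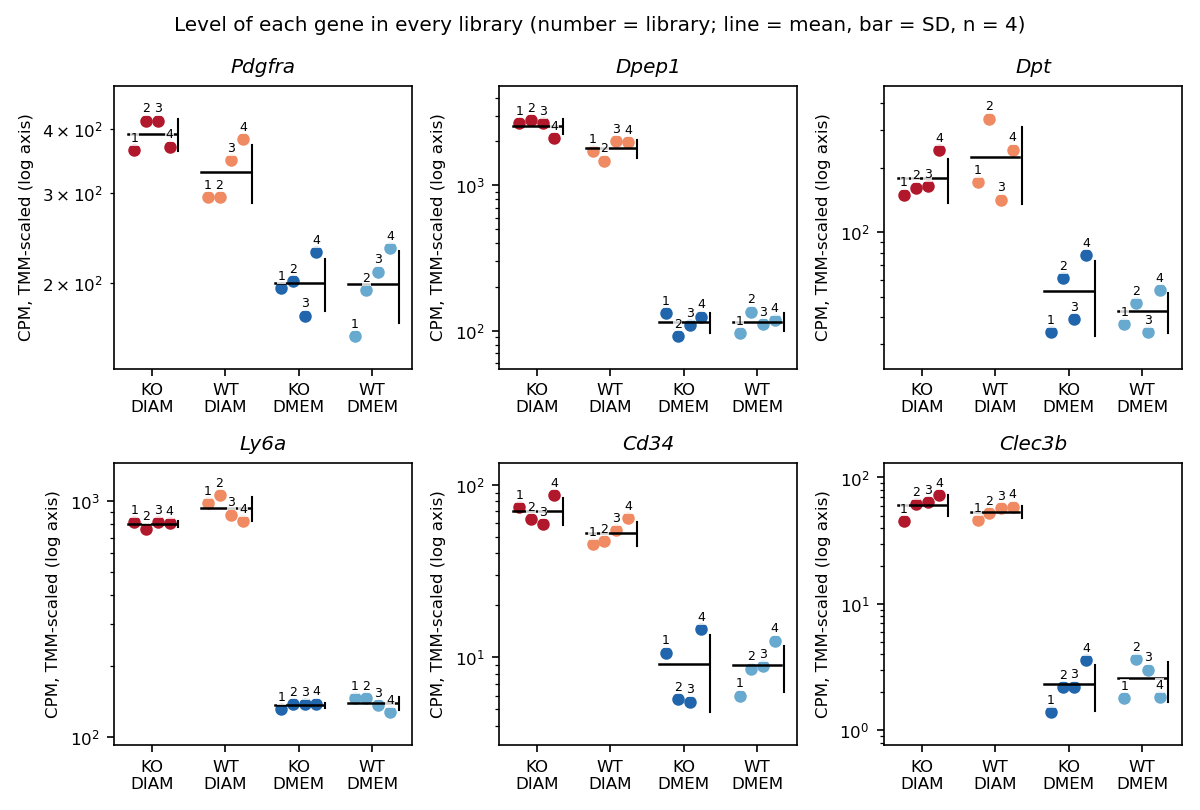
TMM-scaled CPM on a log axis for each of the 6 genes in all 16 libraries. Each dot is 1 library with its number, the horizontal line is the group mean and the vertical bar the SD (n = 4). In each panel the 8 DIAM dots lie above the 8 DMEM dots, by the smallest margin for Pdgfra, where the lowest DIAM library is 1.26 times the highest DMEM library.

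The receptor Pdgfra (ENSMUSG00000029231) had 362.7, 414.6, 414.8 and 369.1 CPM in KO and 294.3, 294.3, 347.1 and 382.1 CPM in WT libraries 1 to 4 in DIAM. In DMEM it had 195.1, 201.5, 172.6 and 229.4 CPM in KO and 157.5, 193.2, 210.2 and 233.6 CPM in WT libraries. The media did not overlap, while KO and WT libraries overlapped within each medium. In KO cells its log2 fold change with DIAM was 0.97 ± 0.117 (SE; 1.95-fold; edgeR adjusted p = 2.97e-06). In WT cells it was 0.73 ± 0.117 (1.66-fold; edgeR adjusted p = 6.78e-05). Pdgfra ranked 1406 in KO and 1730 in WT cells among the 14217 log2 fold changes ordered downward. Group means, from the highest, were 390.3 ± 28.3 CPM in KO and 329.4 ± 43 CPM in WT cells in DIAM, and 199.7 ± 23.3 CPM in KO and 198.6 ± 32 CPM in WT cells in DMEM.

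The other genes of the platelet-derived growth factor axis did not move as one with Pdgfra. Of 8 tested, 1 rose and 4 fell in KO cells and 3 rose and 3 fell in WT cells, with a median log2 fold change of -0.43 in KO and -0.15 in WT cells. Pdgfrb, the second receptor and a marker of mural cells, fell to 561 ± 47.3 CPM in KO cells in DIAM, against 996 ± 97.6 CPM in DMEM (log2 fold change -0.83, edgeR adjusted p = 1.57e-07). In WT cells Pdgfrb fell to 635 ± 15.8 CPM in DIAM, against 1090 ± 87.3 CPM in DMEM (-0.77, edgeR adjusted p = 4.32e-07). Pdgfra was thus higher and Pdgfrb lower in DIAM. Pdgfrb also stands on the list of adipogenic progenitor markers used below, so this pair of receptors does not separate fibroblasts from mural cells. Pdgfd, a ligand of PDGFRB, fell by 1.97 in KO and by 2.16 in WT cells on the log2 scale (edgeR adjusted p = 8.21e-11 and 3.96e-11). Pdgfa, the classical ligand of PDGFRA, fell by 0.58 in KO cells (edgeR adjusted p = 0.000282), while in WT cells its log2 fold change was -0.08 (adjusted p = 0.556). Pdgfc, another PDGFRA ligand, had a log2 fold change of 0.01 in KO cells (edgeR adjusted p = 0.954) and rose by 0.44 in WT cells (adjusted p = 0.00514). Neither ligand's difference between genotypes in its response to the medium passed the interaction test, which called 0 genes of any kind.

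Ly6a (ENSMUSG00000075602), the SCA-1 antigen, had 811.3, 763, 812.7 and 803.5 CPM in KO and 976.8, 1060, 874.4 and 821 CPM in WT libraries 1 to 4 in DIAM. In DMEM it had 130.8, 137.9, 137.3 and 138.3 CPM in KO and 145.4, 145.9, 136.6 and 126.9 CPM in WT libraries. Its replicates were the closest of the 6 genes in 3 of the 4 groups and in WT cells in DIAM second only to Clec3b: its coefficient of variation was 2.94% in KO DIAM, 11.4% in WT DIAM, 2.59% in KO DMEM and 6.46% in WT DMEM cultures. In KO cells Ly6a rose 5.86-fold with DIAM (log2 fold change 2.55 ± 0.074, SE; edgeR adjusted p = 2.12e-13). In WT cells it rose 6.73-fold (2.75 ± 0.075; edgeR adjusted p = 1.06e-13). Means were 797.6 ± 23.5 CPM in KO and 933 ± 106 CPM in WT cells in DIAM, against 136.1 ± 3.53 CPM in KO and 138.7 ± 8.96 CPM in WT cells in DMEM.

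Ly6a has close relatives whose transcripts share sequence with it. The counts are estimates from the program Salmon, and how well it divided shared reads was not checked, so they are uncertain to that extent. Ly6c1, a relative found on endothelium and blood cells, also rose, to 229 ± 18.5 CPM in KO cells in DIAM, against 24 ± 1.33 CPM in DMEM (log2 fold change 3.25, edgeR adjusted p = 8.77e-12). In WT cells Ly6c1 rose to 302 ± 53.3 CPM in DIAM, against 25.3 ± 3.54 CPM in DMEM (3.57, edgeR adjusted p = 3.74e-12). Ly6e rose by 1.79 in KO and by 1.96 in WT cells on the log2 scale (edgeR adjusted p = 5.55e-09 and 2.49e-09). The division of shared reads among these 3 genes was taken as deposited. Of the 10 tested relatives and partners of the 6 genes, 4 rose and 3 fell in KO cells, and 5 rose and 3 fell in WT cells. Among those that rose, Ly6c2 and Sele passed the filter of 1 CPM only through DIAM libraries.

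Cd34 (ENSMUSG00000016494), the sialomucin, had 73.81, 63.39, 59.19 and 87.02 CPM in KO and 45.05, 47.25, 54.31 and 63.7 CPM in WT libraries 1 to 4 in DIAM. In DMEM it had 10.64, 5.73, 5.535 and 14.51 CPM in KO and 5.987, 8.615, 8.878 and 12.48 CPM in WT libraries. Library 4 was the highest in all 4 groups, and KO and WT libraries overlapped in both media. In KO cells Cd34 rose 7.77-fold with DIAM (log2 fold change 2.96 ± 0.289, SE; edgeR adjusted p = 4.91e-07). In WT cells it rose 5.85-fold (2.55 ± 0.286; edgeR adjusted p = 2.66e-06). Its means were 70.85 ± 12.4 CPM in KO and 52.58 ± 8.4 CPM in WT cells in DIAM, against 9.106 ± 4.31 CPM in KO and 8.99 ± 2.67 CPM in WT cells in DMEM.

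The summed level of 10 mesothelial markers followed Cd34 closely from library to library. It was 644, 238.6, 220.8 and 735.9 CPM in KO and 243.1, 129.2, 333.4 and 351.9 CPM in WT libraries 1 to 4 in DIAM. In DMEM it was 366.1, 98.11, 69.84 and 377.1 CPM in KO and 95.98, 107.4, 159.2 and 193.4 CPM in WT libraries. Its order of libraries was that of Cd34 in KO cells in both media and in WT cells in DMEM, and in WT cells in DIAM it differed only in that libraries 1 and 2 changed places. Mesothelium is the lining of the body cavities, and 2 of the 10 markers rose with DIAM in each genotype. Msln, mesothelin, rose to 104 ± 53.8 CPM in KO and 62.7 ± 14.8 CPM in WT cells in DIAM, against 11.4 ± 6.72 CPM in KO and 7.09 ± 1.77 CPM in WT cells in DMEM (edgeR adjusted p = 2.02e-05 and 3.4e-05). With the log2 of this sum as a covariate, added after the data were seen, the log2 fold change of Cd34 with DIAM was 2.56 in KO and 2.21 in WT cells (edgeR adjusted p = 7.35e-09 and 2.39e-08).

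Endothelial and blood cells also carry CD34 and LY6A. The sum of 14 endothelial markers was 156.4 to 242.5 CPM in KO and 266.1 to 338.4 CPM in WT cells in DIAM, and 120.4 to 147.8 CPM in KO and 130.7 to 150.3 CPM in WT cells in DMEM. Of these markers 7 rose and 2 fell in KO cells, and 7 rose and 1 fell in WT cells. Pecam1, the defining endothelial antigen, averaged 21.4 ± 6.01 CPM in KO and 17.1 ± 4.96 CPM in WT cells in DIAM, against 9.91 ± 2.57 CPM in KO and 10.2 ± 2.23 CPM in WT cells in DMEM. Its log2 fold change was 1.11 in KO and 0.74 in WT cells (edgeR adjusted p = 0.00165 and 0.0229). Ptprc, the antigen of all blood leukocytes, went the other way in KO cells (log2 fold change -1.03, edgeR adjusted p = 0.00609), and in WT cells its log2 fold change was -0.64 (adjusted p = 0.0698). Of 11 blood cell markers 0 rose and 5 fell in KO cells, and 3 rose and 1 fell in WT cells. The part of endothelial and blood cells in the Cd34 and Ly6a values was not tested.

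**Figure D2:**
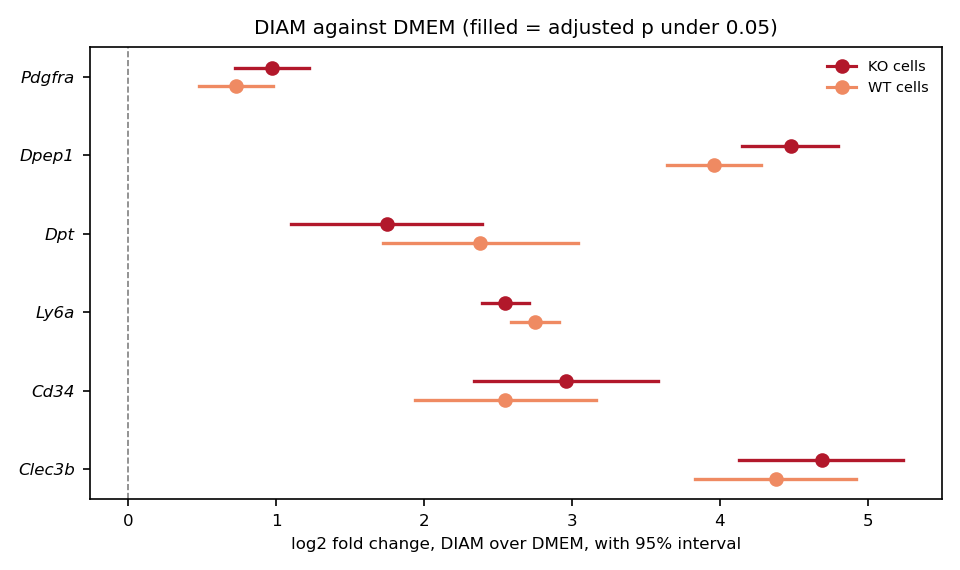
Log2 fold change of DIAM over DMEM for each gene, with KO cells above WT cells. Dots are edgeR estimates, lines are 95% intervals, and filled dots passed an adjusted p of 0.05. All 12 dots are filled and lie between 0.73 and 4.69, and the KO and WT intervals of each gene overlap.

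Dpep1 (ENSMUSG00000019278), the membrane dipeptidase, had 2678, 2797, 2662 and 2107 CPM in KO and 1707, 1475, 2017 and 1985 CPM in WT libraries 1 to 4 in DIAM. In DMEM it had 132.7, 92.25, 109.1 and 125.4 CPM in KO and 96.77, 135.7, 111.5 and 118.1 CPM in WT libraries. The lowest DIAM library was 10.9 times the highest DMEM library. Within DIAM every KO library lay above every WT library, and within DMEM the genotypes overlapped. In KO cells Dpep1 rose 22.3-fold with DIAM (log2 fold change 4.48 ± 0.153, SE; edgeR adjusted p = 1.72e-12). In WT cells it rose 15.6-fold (3.96 ± 0.15; edgeR adjusted p = 6e-12). Its transcripts made up 0.251% of counts in KO and 0.176% in WT cells in DIAM, against 0.0118% in KO and 0.0117% in WT cells in DMEM. Its relative Dpep2 averaged 4.6 ± 0.455 CPM in KO and 5.16 ± 1.06 CPM in WT cells in DIAM, against 3.52 ± 1.01 CPM in KO and 2.82 ± 0.705 CPM in WT cells in DMEM. Dpep2 rose by 0.87 on the log2 scale in WT cells (edgeR adjusted p = 0.0024), and in KO cells its log2 fold change was 0.39 (adjusted p = 0.124).

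Clec3b (ENSMUSG00000025784), the secreted plasminogen-binding lectin, had 45.25, 61.33, 63.98 and 72.54 CPM in KO and 45.76, 52.27, 57.23 and 58.85 CPM in WT libraries 1 to 4 in DIAM. In DMEM it had 1.386, 2.194, 2.219 and 3.586 CPM in KO and 1.803, 3.637, 3.023 and 1.828 CPM in WT libraries. The media were far apart, the lowest DIAM library being 12.4 times the highest DMEM library, and the genotypes overlapped in each medium. In KO cells Clec3b rose 25.7-fold with DIAM (log2 fold change 4.69 ± 0.26, SE; edgeR adjusted p = 7.57e-10). In WT cells it rose 20.8-fold (4.38 ± 0.255; edgeR adjusted p = 1.63e-09). These were the largest folds of the 6 genes and ranked 110 in KO and 124 in WT cells among all 14217 genes tested. The DMEM levels behind them rest on estimated counts of 53 to 150 in KO and 74 to 143 in WT libraries. Its means were 60.77 ± 11.4 CPM in KO and 53.53 ± 5.89 CPM in WT cells in DIAM, against 2.346 ± 0.913 CPM in KO and 2.573 ± 0.909 CPM in WT cells in DMEM.

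Dpt (ENSMUSG00000026574), the matrix protein dermatopontin, had 149.4, 161.1, 163.4 and 240.3 CPM in KO and 170.3, 338.2, 141.6 and 241.9 CPM in WT libraries 1 to 4 in DIAM. In DMEM it had 34.02, 60.89, 39.33 and 78.11 CPM in KO and 37.08, 46.46, 34.07 and 53.59 CPM in WT libraries. Libraries 2 and 4 were the higher pair in WT cells in both media and in KO cells in DMEM, and in KO cells in DIAM library 4 alone stood out. In KO cells Dpt rose 3.36-fold with DIAM (log2 fold change 1.75 ± 0.301, SE; edgeR adjusted p = 0.000149). In WT cells it rose 5.21-fold (2.38 ± 0.307; edgeR adjusted p = 1.21e-05). Its means were 178.5 ± 41.6 CPM in KO and 223 ± 87.6 CPM in WT cells in DIAM, against 53.09 ± 20.3 CPM in KO and 42.8 ± 8.92 CPM in WT cells in DMEM. Dcn, decorin, the matrix proteoglycan that dermatopontin binds, rose by 0.85 in KO and by 1 in WT cells on the log2 scale (edgeR adjusted p = 4.67e-05 and 1.16e-05). Tgfb1, the growth factor whose action dermatopontin modifies, fell by 0.99 in KO and by 0.53 in WT cells (edgeR adjusted p = 7.53e-06 and 0.00262).

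Within groups the replicates differed in like ways for some of the 6 genes. KO library 4 in DMEM was the highest of its group for 5 of the 6, the exception being Dpep1, while 23.6% of all tested genes peaked in that library. In DIAM, library 4 was the highest for 3 of the 6 genes in KO and for 3 of the 6 in WT cells, where 28.4% and 24.2% of all genes peaked. The same libraries had the highest mesothelial sums. Dpep1 was lowest in WT library 2 in DIAM, which also had the lowest sum of 12 mature adipocyte markers in that group, 2829 CPM against 3996, 4743 and 4772 CPM in WT libraries 1, 3 and 4. That library was the lowest of its group for 33% of all tested genes. In KO libraries 1 to 4 in DIAM the adipocyte sum was 6622, 6383, 4741 and 6139 CPM, and Dpep1 was lowest in library 4, not in library 3. The part of these cell populations in the spread between replicates was not tested.

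**Figure D3:**
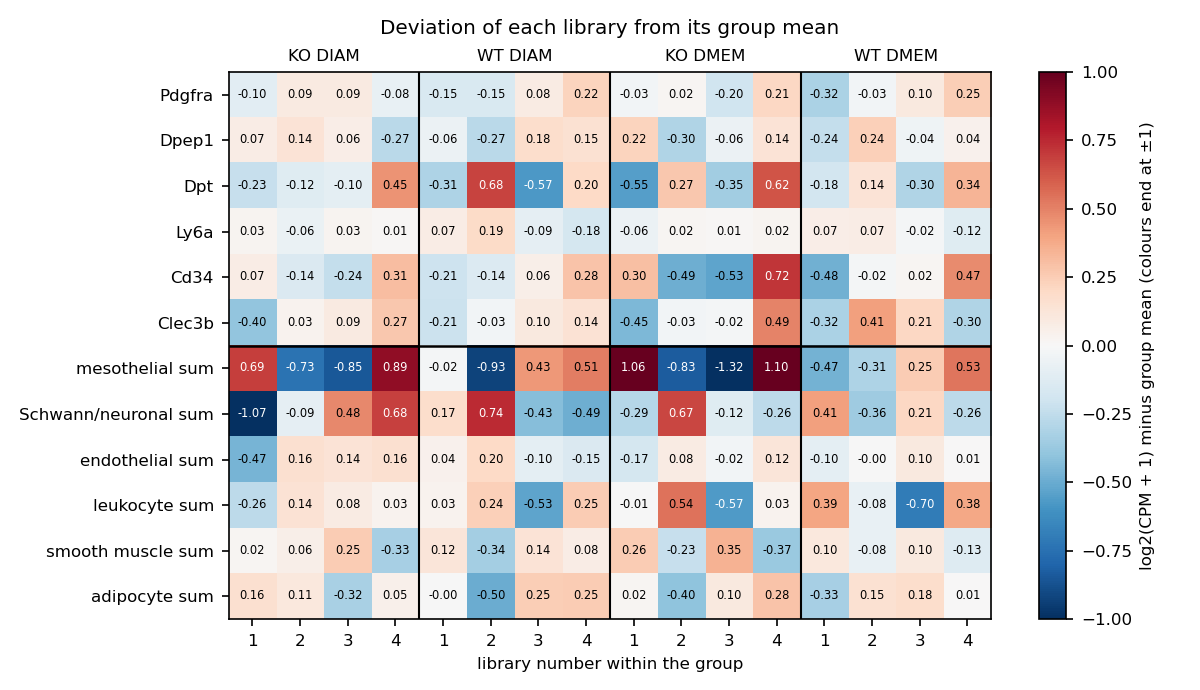
Each cell gives the log2(CPM + 1) of 1 library minus its group mean, for the 6 genes (upper rows) and for summed marker lists of other cell types (lower rows). Red is above and blue below the group mean, and colours end at ±1. The Cd34 row and the mesothelial row share their pattern, and the Ly6a row is nearly white.

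Other markers of fibroblasts did not rise with the 6 genes as a group. Of 24 such genes, 7 rose and 16 fell in KO cells, and 8 rose and 13 fell in WT cells, with a median log2 fold change of -0.73 in KO and -0.47 in WT cells. Gsn, the actin-severing protein gelsolin, rose to 15300 ± 1180 CPM in KO and 11000 ± 2020 CPM in WT cells in DIAM, against 748 ± 24.3 CPM in KO and 772 ± 20.8 CPM in WT cells in DMEM. Its log2 fold change was 4.35 in KO and 3.84 in WT cells (edgeR adjusted p = 1.23e-13 and 3.71e-13). Scara5, a ferritin receptor, had a log2 fold change of 4.28 in KO and 3.89 in WT cells (edgeR adjusted p = 2.36e-12 and 6.42e-12). Gli1, the Hedgehog target that marks adventitial progenitors in mice, rose by 3.39 in KO and by 2.52 in WT cells (edgeR adjusted p = 2.67e-09 and 5.64e-08) to 2.13 ± 0.139 CPM in KO and 1.7 ± 0.181 CPM in WT cells in DIAM. In DMEM it had 0.202 ± 0.0785 CPM in KO and 0.294 ± 0.028 CPM in WT cells. Gli1 passed the filter of 1 CPM only through DIAM libraries, so a rise was favoured by the filter itself. Fibrillar matrix genes were among those that fell. Col1a1, a chain of type I collagen, averaged 2310 ± 695 CPM in KO and 4460 ± 1060 CPM in WT cells in DIAM, against 8970 ± 1600 CPM in KO and 9260 ± 704 CPM in WT cells in DMEM. Its log2 fold change was -1.96 in KO and -1.05 in WT cells (edgeR adjusted p = 5.67e-07 and 0.000313). Mfap4, a microfibril protein, fell by 2.31 in KO and by 2.24 in WT cells (edgeR adjusted p = 1.59e-08 and 2.6e-08).

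Other markers of adipogenic progenitors were mixed. Of 21 tested, 12 rose and 6 fell in KO cells, and 8 rose and 6 fell in WT cells, with a median log2 fold change of 0.49 in KO and 0.28 in WT cells. Fmo2, a monooxygenase, rose by 5.5 in KO and by 5.2 in WT cells on the log2 scale (edgeR adjusted p = 1.23e-13 and 1.94e-13). Igfbp6, a binding protein of insulin-like growth factors, rose by 2.56 in KO and by 2.43 in WT cells (edgeR adjusted p = 1e-10 and 1.99e-10), and the surface antigen gene Cd24a by 2.58 and 2.33 (adjusted p = 1.35e-10 and 4.72e-10). F3, tissue factor, which marks a regulatory subset of adipose stromal cells, fell by 2.26 in KO and by 2.21 in WT cells (edgeR adjusted p = 2.76e-11 and 4.21e-11). Pi16 and Dpp4 are the antigens most used for the interstitial progenitor of adipose tissue. Pi16 averaged 11.1 ± 1.79 CPM in KO and 8.73 ± 1.04 CPM in WT cells in DIAM, against 5.49 ± 0.87 CPM in KO and 5.73 ± 0.792 CPM in WT cells in DMEM, and it rose in both genotypes (log2 fold change 1.01 and 0.61; edgeR adjusted p = 1.45e-05 and 0.00181). Dpp4 had a log2 fold change of 1.16 in KO cells (edgeR adjusted p = 0.0756) and rose by 1.43 in WT cells (adjusted p = 0.0424). Dpp4, Pi16, Col1a1, Dcn, Acta2, Myh11, Myocd, Pecam1, Ptprc, Sox10, Ngfr and Tubb3 were picked after their values were seen. All 12 tested markers of mature adipocytes rose in both genotypes, and their sum was 4741 to 6622 CPM in KO and 2829 to 4772 CPM in WT cells in DIAM, against 329.4 to 530 CPM in KO and 370.9 to 530.1 CPM in WT cells in DMEM. Of these, Cidec and Retn passed the filter of 1 CPM only through DIAM libraries. Cidea, Lep and Ucp1 were also on the list of 15 but are not in the deposited gene table. The part of adipocyte-like cells in the values of the 6 genes was not tested.

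**Figure D4:**
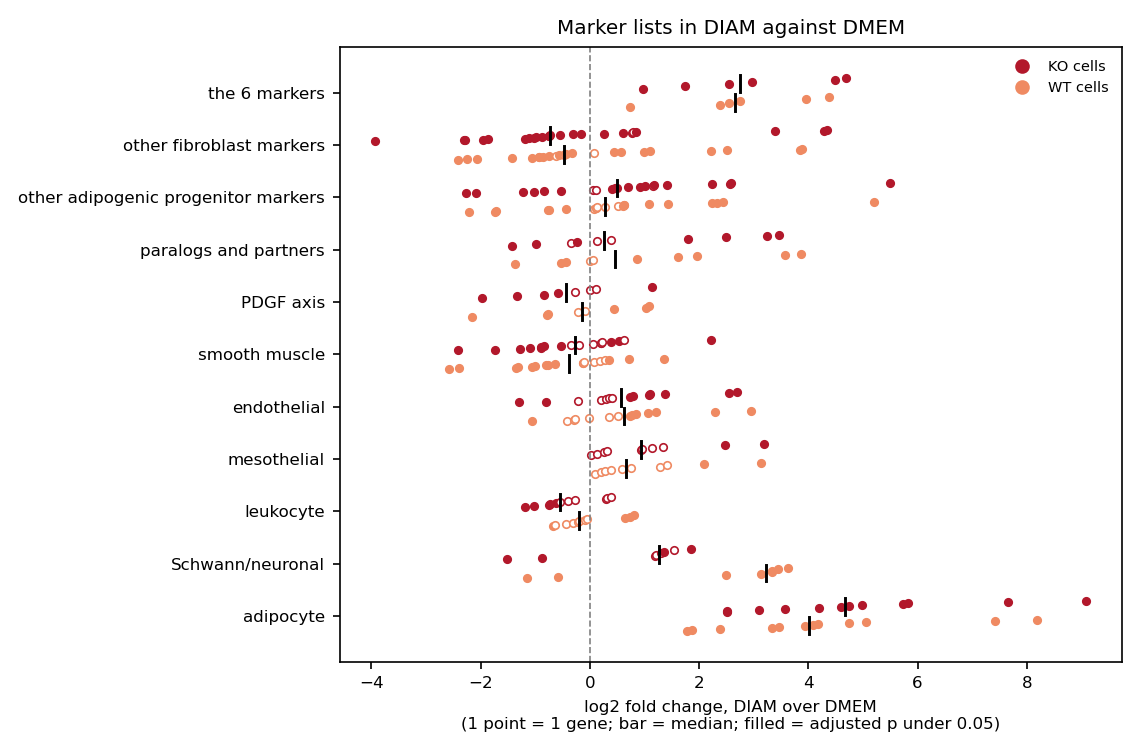
Log2 fold change of DIAM over DMEM for every tested gene of each list, KO cells above WT cells. Filled points passed an adjusted p of 0.05 in edgeR and black bars are medians. The 6 genes lie wholly to the right of 0, as do the adipocyte and mesothelial genes, while the other fibroblast markers spread on both sides with medians of -0.73 in KO and -0.47 in WT cells.

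The closest profiles over the 16 libraries were found by the root mean square difference of log2(CPM + 1) values, each gene centred on its own mean, among 10562 named genes of at least 5 CPM. This is a description with no test, and it mostly reflects the contrast between media. Dpep1 lay nearest to Gsn (0.166) and Scara5 (0.175), 2 of the fibroblast markers already described, against a spread of its own of 2.12. Clec3b also lay nearest to Scara5 (0.216), followed by Thsd7a (0.217). Dpep1 and Clec3b were each other's closest gene among the 6, at 0.335. Among the nearest profiles to Ly6a was Cyb561 (0.16), a cytochrome b561 that carries electrons from ascorbate. Cd34 lay nearest to Tent5c (0.248) and Arl4d (0.253), and Dpt to Inhbb (0.255), an activin subunit, and Mt1 (0.296), a metallothionein. Pdgfra, with the smallest spread of its own (0.46), lay nearest to Tspan9 (0.098) and Rapgef2 (0.104), and 9103 of the candidates were nearer to it than any other of the 6 genes.

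The genotype comparison asks whether cells from mice whose red cell lineage lacks Arg1 differ from cells of their littermates. In DMEM none of the 6 genes was called, and edgeR called 0 of all 14217 genes (0%), while 438 genes had an unadjusted p under 0.05. DESeq2 called 1 gene and 2 are called in the authors' deposited table, none of them among the 6. The 95% intervals show which differences these libraries leave possible. For Ly6a, the most tightly measured, the log2 difference of KO over WT cells was -0.03 (-0.18 to 0.12). For Dpep1 it was -0.01 (-0.29 to 0.28) and for Pdgfra 0.01 (-0.24 to 0.26). The intervals were wider for Cd34 (0.02, -0.59 to 0.64), Clec3b (-0.12, -0.72 to 0.47) and Dpt (0.31, -0.32 to 0.95). For none of the 6 were the genotypes' libraries in DMEM without overlap, a state found in 0.774% of all genes with KO higher and 0.823% with KO lower.

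In DIAM, Dpep1 was the 1 gene of the 6 that was called, at a mean of 2561 ± 308 CPM in KO cells and 1796 ± 255 CPM in WT cells (SD, n = 4 each). Its log2 difference was 0.51 ± 0.133 (SE; 95% interval 0.23 to 0.79; 1.43-fold; edgeR adjusted p = 0.0315). Of all genes tested 8.38% were called in this comparison, 3.43% as higher and 4.95% as lower in KO cells, and a count of 1 among 6 genes is not set apart from that background. The lowest KO library (2107 CPM) lay above the highest WT library (2017 CPM) by a small margin. With only the 8 DIAM libraries in the fit the adjusted p was 0.0694, and that fit called 0 genes in all. Leaving out 1 library took the adjusted p for Dpep1 to 0.082, 0.0989 and 0.0577 without KO libraries 1, 2 and 3 in DIAM, and to 0.0839 and 0.105 without WT libraries 1 and 2 in DIAM. The authors' deposited table gives Dpep1 a log2 fold change of 0.52 and an adjusted p of 0.00178.

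Ly6a went the other way in DIAM but was not called. Its log2 difference was -0.23 ± 0.07 (SE; 95% interval -0.37 to -0.08; 0.855-fold; edgeR adjusted p = 0.056), with KO libraries at 763 to 812.7 CPM and WT libraries at 821 to 1060 CPM. The genotypes did not overlap for Ly6a and Dpep1, while over all genes this held for 7.39% with KO higher and 9.05% with KO lower. DESeq2 called Ly6a (adjusted p = 0.0223), as did edgeR without WT library 3 (adjusted p = 0.0441) or WT library 4 in DIAM (adjusted p = 0.0177). The authors' deposited table gives Ly6a an adjusted p of 0.0653. Ly6c1, its relative, was lower in KO cells (log2 difference -0.4, edgeR adjusted p = 0.0457).

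The remaining 4 genes were not called in DIAM. Cd34 had a log2 difference of 0.43 (95% interval -0.13 to 0.99; edgeR adjusted p = 0.327), and the authors' deposited table calls it, at 0.43 with an adjusted p of 0.03. Pdgfra had 0.24 (0 to 0.49; edgeR adjusted p = 0.199), Clec3b 0.18 (-0.26 to 0.63; adjusted p = 0.63) and Dpt -0.32 (-0.94 to 0.3; adjusted p = 0.534). Of the platelet-derived growth factor genes, Pdgfa, Pdgfc and Pdgfrl were lower in KO than in WT cells in DIAM, with log2 differences of -0.6, -0.55 and -0.7 (edgeR adjusted p = 0.012, 0.0164 and 0.0184). Of the other fibroblast markers 1 was higher and 6 were lower in KO cells: Gsn was the 1 higher (0.47, edgeR adjusted p = 0.017), and Col1a1 was among the lower ones (-0.95, adjusted p = 0.015).

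Markers of other cell types also differed between the genotypes in DIAM, and the Schwann and endothelial sums did so without overlap, as Dpep1 and Ly6a did. The summed level of Schwann cell and neuronal markers was 65.31, 129.9, 193.6 and 222.5 CPM in KO and 542.8, 807.3, 357.7 and 342.4 CPM in WT libraries 1 to 4 in DIAM. Of the 8 tested, 2 rose and 2 fell with DIAM in KO cells, and 6 rose and 2 fell in WT cells. In DMEM the sum was 94.99 to 185.6 CPM in KO and 96.57 to 165.5 CPM in WT cells. Ngfr was its largest part in DIAM, at 55.6 ± 34.6 CPM in KO and 239 ± 110 CPM in WT cells. In DMEM the largest was Tubb3, at 60.7 ± 10.6 CPM in KO and 68.1 ± 10.9 CPM in WT cells. Tubb3 fell with DIAM, by 1.52 in KO and by 0.58 in WT cells (edgeR adjusted p = 2.08e-05 and 0.0276). The sum thus does not stand for Schwann cells alone. Sox10, a defining Schwann cell factor, averaged 11.7 ± 6.87 CPM in KO and 45.6 ± 18.3 CPM in WT cells in DIAM, and 5.08 ± 5.65 CPM in KO and 4.46 ± 2.84 CPM in WT cells in DMEM. WT library 2 in DIAM, the highest in this sum, was also the highest WT library for Ly6a and Dpt and the lowest for Dpep1. It was the highest of its group for 2 and the lowest for 2 of the 6 genes. Of all tested genes 34% were highest and 33% lowest there, so these ranks are not set apart from that background. With the log2 of the Schwann and neuronal sum as a covariate, added after the data were seen, the log2 difference of Dpep1 was 0.00663 and that of Ly6a -0.0717, and 0 of all genes were called, against 1191 without it. Because that sum does not overlap between genotypes in DIAM, the genotype and this marker level cannot be told apart in that comparison. The endothelial sum was 156.4 to 242.5 CPM in KO and 266.1 to 338.4 CPM in WT libraries in DIAM. Of its 14 genes 0 were higher and 2 lower in KO cells, although the median log2 difference of the 14 was 0.22. The 2 lower genes were Flt1, the most abundant of the 14 (84.3 ± 20 CPM in KO, 164 ± 48.9 CPM in WT cells), and Emcn (28.2 ± 4.92 and 41.1 ± 4.15 CPM). Pecam1 had a log2 difference of 0.33 (edgeR adjusted p = 0.456). The lower sum in KO cells thus does not stand for the endothelial markers as a whole. Of the 12 mature adipocyte markers 4 were higher and 0 lower in KO cells in DIAM, the direction of Dpep1, with a median log2 difference of 0.61 against 0 for all genes. The adipocyte sums overlapped, at 4741 to 6622 CPM in KO and 2829 to 4772 CPM in WT libraries. The part of endothelial and adipocyte-like cells in the genotype values of the 6 genes was not tested. With the mesothelial sum as covariate the log2 difference of Dpep1 was 0.462 (edgeR adjusted p = 0.066) and that of Cd34 0.14 (adjusted p = 0.636). The rise of all 6 genes with DIAM was called in both genotypes with either covariate. In WT cells, however, the Schwann and neuronal sum did not overlap between the media either (342.4 to 807.3 CPM in DIAM, 96.57 to 165.5 CPM in DMEM). There the medium and this marker level vary together.

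The interaction, the log2 change with DIAM in KO cells minus that in WT cells, was called for none of the 6 genes and for 0% of all genes, with 2255 genes at an unadjusted p under 0.05. DESeq2 called 225 genes and 234 are called in the authors' deposited table, none of them among the 6. Dpep1 came nearest, at 0.52 (95% interval 0.12 to 0.92; unadjusted p = 0.0143, edgeR adjusted p = 0.218). The intervals for the others included 0: Pdgfra 0.24 (-0.11 to 0.59), Ly6a -0.2 (-0.41 to 0.01), Cd34 0.41 (-0.42 to 1.24), Clec3b 0.31 (-0.44 to 1.05) and Dpt -0.63 (-1.52 to 0.26). A difference between genotypes in the response of the 6 genes to DIAM was therefore not detected by edgeR, and these intervals give the sizes that remain possible.

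**Figure D5:**
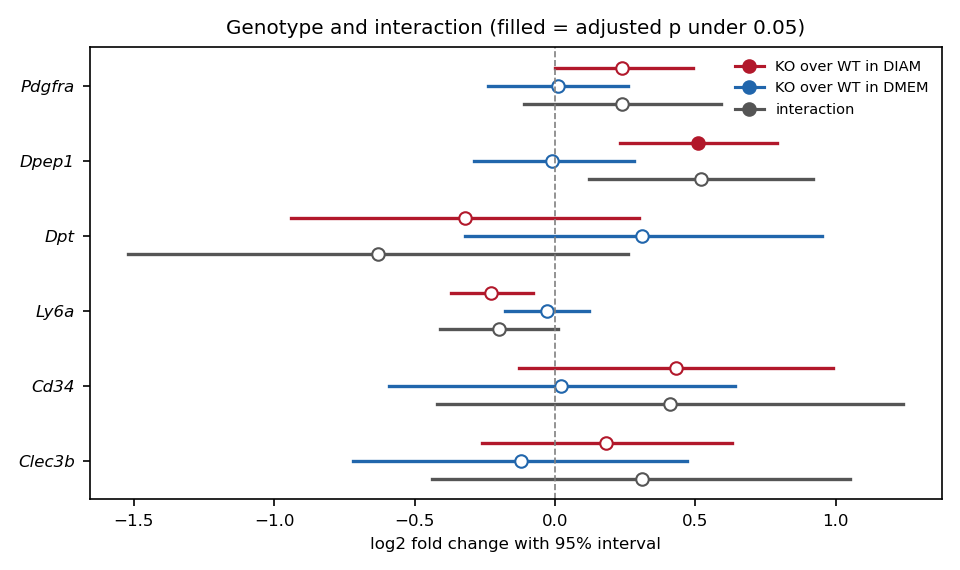
Log2 difference of KO over WT cells in DIAM (red) and in DMEM (blue), and their interaction (grey), for each gene, with 95% intervals from edgeR. Filled dots passed an adjusted p of 0.05, and Dpep1 in DIAM, at 0.51, is the only one. The blue dots lie between -0.12 and 0.31, and the intervals of Dpt, Cd34 and Clec3b are the widest.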

How the data were processed

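Total RNA libraries were made with an unstranded kit after depletion of ribosomal RNA, per the labels' protocols. FastQC, Salmon 1.9.0, DESeq2 1.46.0, R 4.4.2 and the build GRCm39 were used, per the submitters' processing notes. The library columns are called TPM in the labels, but they sum to between 37221313 and 47626242 after rounding, so the authors' deposited values were treated as estimated counts and rounded to whole numbers. The authors' deposited table also holds log2 fold changes and adjusted p-values, which are quoted only where named.

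Genes with at least 1 CPM in at least 4 of the 16 libraries were tested, leaving 14217 genes with 99.83% or more of the counts of any library. Testing used edgeR 4.0.16 in R 4.3.3: the two-sided quasi-likelihood test with robust dispersion and TMM scaling, 1 model over the 4 groups, and Benjamini-Hochberg adjustment over the 14217 genes. A gene was called at an adjusted p under 0.05. Standard errors are approximate and come from the log2 fold change and F. Counts of every pair of libraries in a group differed beyond sampling noise.

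The 6 genes and all lists were chosen with earlier results of these data known. Named genes of a list are up to 4 with the smallest p for DIAM against DMEM in WT cells, any tested gene of the growth factor axis and of the relatives' list, and the 2 nearest profiles of each of the 6 genes. 1 gene that this rule takes is not reported here. No label says that a replicate number marks a shared animal or batch, and the replicate numbers did not meet the pairing criterion, a correlation over 0.1 for every same-numbered pair. Alternatives were limma 3.58.1, DESeq2 1.42.0, other filters and scalings, a replicate block, fits of only the groups compared, the authors' adjusted p-values, leaving out each library, and 2 covariates added after the data were seen. The self-test on simulated counts with known changes was run first. The reference annotation was of another build, so no gene coordinates are given beyond RefSeq's promoter windows.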

Additional observations from a re-analysis of the deposited data

Results flagged for a closer look

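Of 24 sets of 4 libraries (6 genes in 4 groups), 2 held a library that stood apart from the other 3 by the gap test, and chance gives about 1 in 20. Dpt in KO cells in DIAM had its highest library, library 4, at 240.3 CPM, against 149.4 to 163.4 CPM in the other libraries of that group. Ly6a in KO cells in DMEM had its lowest library, library 1, at 130.8 CPM, against 137.3 to 138.3 CPM in the others, a gap that stands out because these 3 are so close.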

How the results depend on the processing

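All 6 genes were called as higher in DIAM in both genotypes under every alternative run, left-out libraries included, and the count of the 6 called in DMEM between genotypes and in the interaction was 0 under every one. The count called between genotypes in DIAM was 1. It was 0 with a replicate block (Dpep1 adjusted p = 0.0502), 0 with only the groups compared, 0 with the mesothelial covariate and 0 with the Schwann covariate, 2 with DESeq2 and 2 by the authors' adjusted p-values. Leaving out 1 library gave 0 to 2, and Dpep1 then had a log2 difference of 0.434 to 0.594 and an adjusted p of 0.0207 to 0.105. The cause was not tested. Over all genes that comparison gave 1191 calls, against 0 with only the groups compared, 453 with the mesothelial covariate, 0 with the Schwann covariate, 1873 with DESeq2, 1810 by the authors' values and as few as 178 with a library left out. Between genotypes in DMEM it gave 0, against 1 with DESeq2 and 2 by the authors' values, and for the interaction 0, against 225 and 234.

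With quantile normalization the split of genes by medium was 3662 higher and 5107 lower in KO cells (4243 and 4380 with TMM) and 3287 higher and 4886 lower in WT cells (3929 and 3910 with TMM).

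Some signs turned. Between genotypes in DMEM, where differences were small, Pdgfra was -0.000233 without a filter and -0.0251 with the mesothelial covariate, Dpep1 was 0.00388 with a 5 CPM filter and 0.00892 with quantile normalization, and Ly6a was 0.000383 with quantile normalization. Cd34 was -0.0646 with quantile normalization, -0.0426 with limma on log2(CPM + 1), -0.0181 with the replicate block, -0.213 with the mesothelial covariate and -0.0139 with the Schwann covariate. With a library left out the ranges were -0.0777 to 0.0948 for Pdgfra, -0.0801 to 0.0857 for Dpep1, -0.0674 to 0.00671 for Ly6a, -0.3 to 0.22 for Cd34 and -0.407 to 0.0861 for Clec3b. In DIAM with the Schwann covariate, Dpt was 0.171 (-0.321 without it) and Cd34 -0.0341 (0.43 without it), and the interaction of Cd34 was -0.0202 (0.409 without it). For the block, same-numbered libraries of the 2 media correlated at 0.319, 0.012, 0.148 and 0.276 in KO cells and at 0.171, -0.094, 0.267 and 0.253 in WT cells, numbers 1 to 4, and 5 of the 8 correlated best with their own number. All pairs but number 2 thus exceeded 0.1, a hint of pairing across media from the data, not the design. Between genotypes they correlated at -0.216 to 0.174 in DMEM and at -0.203 to -0.041 in DIAM.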
